A study of Mus musculus with 287 samples.

Results

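The 10 genes studied here are Cux1, Cux2, Pou3f1, Pou3f2, Pou3f3, Mef2c, Lmo4, Inhba, Rorb and Plxnd1. They were grouped as genes of upper-layer neurons of the cerebral cortex and followed through single cells of mouse cerebral organoids. Upper-layer is the name of this list and does not say which kind of cell held a transcript. The 10 genes were taken by symbol from a count table of 55359 gene IDs, and all 10 were present. Every cell carried the genotype MADM-11GT/TG;Emx1-CreER+/-, since all organoids came from embryonic stem cells of that genotype. In this system Emx1, a gene of the dorsal forebrain, drives a Cre that tamoxifen switches on, and the Cre recombines homologous chromosomes in a dividing progenitor and leaves its daughters green or red. Recombination was induced with 60 nM 4-hydroxytamoxifen on day 13, and whole fluorescent cells were drawn from located clones into a glass pipette on day 20. The labels give each clone a size and a type, SN or N, which they do not spell out, and each cell a colour and 1 of 3 plates. Cells in which fewer than 1000 genes had an exon count were left out, and 87% of the labelled cells were kept, 89.1% of those from SN clones and 84.7% of those from N clones. Clones of type SN had labelled sizes of 2 to 6 cells (median 3) and clones of type N 4 to 19 (median 6.5), so type and size largely go together.

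Upper-layer neurons lie in the outer cortical layers, are born later than deep-layer neurons and mostly send axons within the cortex, many of them through the corpus callosum. Cux1 and Cux2 are homeodomain factors with cut repeats that act in the dendrites and synapses of these neurons. The single-exon genes Pou3f1, Pou3f2 and Pou3f3 encode POU-domain factors, and in mouse Pou3f2 and Pou3f3 act together in the production and migration of upper-layer neurons. Deep-layer identity is set by another group of factors, among them Bcl11b and Fezf2 of neurons that project below the cortex, Tbr1 and Tle4 of corticothalamic neurons and Sox5. In the mature cortex these programmes lie mostly in different neurons, whereas young neurons and progenitors can hold transcripts of both.

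A kept cell of an SN clone held 10405 to 12162373 exon counts, with a median of 1365828, and a kept cell of an N clone 6171 to 13040432, with a median of 1887116.5. Because the chance of counting a gene rises with depth, shares of cells are also given after each cell was thinned at random to 100000 exon counts, which kept the 91.1% of cells that were deep enough. The labels' protocol calls the collected cells neurons. At equal depth the 6 pan-neuronal markers (Stmn2, Tubb3, Dcx, Gap43, Mapt and Map2) were each counted in 94.2% to 98.7% of cells. The 10 radial glia markers were counted in 15.1% to 96.4% of cells, with a median over the genes of 60.4%. The 6 cell cycle markers had a median share of 49.3% (23.6% to 78.2%), the 6 excitatory neuron markers 40.9% and the 6 intermediate progenitor markers 25.1%. For the 5 Cajal-Retzius markers it was 27.6% (up to 56.9%) and for the 4 oligodendrocyte lineage markers 23.1% (up to 47.1%). The 5 mesenchyme and endothelium markers had a median share of 12.4%, the 6 GABAergic markers 11.8%, the 4 choroid plexus markers 2.44% and the 3 microglia markers 7.11%. For comparison, the median share over the 10 upper-layer genes was 46.4% and over 12 deep-layer genes 43.6%. No organoid or culture is named and clones can share an organoid, so p-values below measure the spread between clones only.

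The coding sequences of the Cux pair and of the POU trio were compared, since reads from identical stretches could be counted for the wrong gene. The longest identical runs between coding sequences (GENCODE M21) are shown, with the bases that every Pou3f1 run has in common in capitals.
Pou3f1 and Pou3f2: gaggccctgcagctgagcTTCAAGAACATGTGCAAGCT
Pou3f1 and Pou3f3: TTCAAGAACATGTGCAAGCTcaagccgct
Pou3f2 and Pou3f3: gcttcacggtgaacggcatgctg
Cux1 and Cux2: tcaagcacaacattggccagcgc
The run of 38 bases shared by Pou3f1 and Pou3f2 lies at bases 883 to 920 of the 1350 coding bases of Pou3f1, in the part that encodes the POU-specific domain, and its last 20 bases also stand in the run of 29 bases shared by Pou3f1 and Pou3f3. The Cux1 and Cux2 run of 23 bases lies in the part that encodes a cut repeat. None of these pairs shared a stretch of 50 bases in the coding sequence. Untranslated regions were not compared. Cux1 and Cux2 lie on chromosome 5, Pou3f1 and Pou3f2 on chromosome 4 and Pou3f3 on chromosome 1.

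Of the Cux genes, Cux2 was counted in more cells but at lower counts. Cux1 had an exon count in 57.9% of the kept cells (95% Wilson interval 51.7 to 63.9), and in 53.4% the count was 4 or more. Intervals of this kind treat cells as independent, although cells share clones. Cux2 had a count in 76.1% of cells (70.4 to 81.01), but a count of 4 or more in 47.8%, and in 70 cells it was only 1 to 3. With each cell thinned to 100000 counts the order turned, with Cux1 in 53.8% of cells and Cux2 in 41.3%. Among cells with a count, the median level was 44.8 CPM (the gene's share of all exon counts of the cell, scaled to a common total) for Cux1 and 5.37 CPM for Cux2. The highest cell reached 643 CPM for Cux1 and 617 CPM for Cux2. Cux1 is also the locus of the alternative product CASP, which shares exons with the homeodomain transcripts, and gene-level counts do not separate them.

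Of the POU factors, Pou3f3 was the most often counted. It had a count in 78.9% of cells (95% interval 73.4 to 83.6), Pou3f2 in 50.6% (44.4 to 56.8) and Pou3f1 in 38.5% (32.6 to 44.7). At equal depth the order was the same, with 68.9%, 43.1% and 20.9% of cells. Median CPM in cells with a count was 55.0 for Pou3f3, 44.1 for Pou3f2 and 10.8 for Pou3f1. Counts of Pou3f1 were the most concentrated of the trio, since 64.6% of all its exon counts lay in 10 cells, against 35.6% for Pou3f2 and 34.1% for Pou3f3, and a single cell held 1233 CPM. All 3 POU genes together were counted in 67 cells (27.1%), and in 23 cells (10.2%) at equal depth. The non-coding gene Pantr1 neighbours Pou3f3, was counted in 75.3% of cells, and could exchange reads with it because the use of strand in counting is not stated.

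The other 5 genes spanned the widest range. Lmo4, a LIM-only cofactor of transcription, was counted in 90.3% of cells (85.9 to 93.4) at a median of 189.5 CPM over all kept cells. Mef2c, a MADS-box factor of excitatory neuron maturation, was counted in 74.1% of cells (68.3 to 79.2) at a median of 40.3 CPM. Plxnd1, the receptor of semaphorin 3E, was counted in 56.3% of cells (50.0 to 62.3) and reached 1505 CPM in a single cell. Rorb, the nuclear receptor that marks layer IV, was counted in 47.0% of cells (40.8 to 53.2), but in 45 of these cells with only 1 to 3 counts. Plates differed for Rorb, with 40.0% of cells on plate 1, 66.25% on plate 2 and 35.1% on plate 3, all outside that interval. With cells thinned to 100000 counts these shares were 19.0%, 32.9% and 22.6%. At equal depth the Spearman correlation of Rorb over cells was 0.41 with the mean radial glia marker level and 0.050 with the mean pan-neuronal level. Cux1 (0.35 and 0.23) and Pou3f2 (0.23 and 0.14) had the same order. The other genes of the 10 had the reverse order, for example Lmo4 (−0.021 and 0.24) and Plxnd1 (0.14 and 0.32). What kind of cell held these transcripts was not tested. Inhba, which encodes the βA subunit of activins, was the rarest, with 69 cells (27.9%, 22.7 to 33.8), 36 cells at 4 counts or more, and 74.4% of its counts in 10 cells. On a scale per kilobase of annotated exon, mean levels over cells were 75.3 CPM per kb for Lmo4, 11.5 for Plxnd1, 9.73 for Mef2c, 8.38 for Pou3f3, 7.74 for Pou3f2, 4.21 for Pou3f1, 4.02 for Cux2, 2.40 for Cux1, 1.71 for Rorb and 0.901 for Inhba. Lmo4 thus stood far above the rest, while neighbours further down the order lay close together beside a spread over cells that began at 0 for every gene and reached 189.2 CPM for Inhba, the gene with the lowest maximum. The union of all annotated exons was used as the length, which lowers the value of genes with many alternative exons such as Cux1, and the order of the intermediate genes is not firm.

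Intron counts, which can come from unspliced transcripts, were most of the counts of Rorb, Cux2 and Cux1. Of all counts assigned to Rorb 77.9% were intronic, of Cux2 59.3% and of Cux1 57.7%, against 30.3% over all genes pooled. Mef2c had 27.2%, Lmo4 6.03%, Plxnd1 5.31% and Inhba 3.51%, and the POU genes have no intron. Cux1 had intron but no exon counts in 47 cells, Cux2 in 32 and Rorb in 56, so these genes were seen in more cells when both kinds of count were used. Exon and intron CPM of the same gene were only loosely related over the kept cells, with a Spearman correlation of 0.33 for Cux1, 0.31 for Cux2, 0.34 for Rorb, 0.31 for Mef2c and 0.48 for Plxnd1, as a description over cells that differ in depth. The stacked bars of exon and intron detection show these shares.

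**Figure D1:**
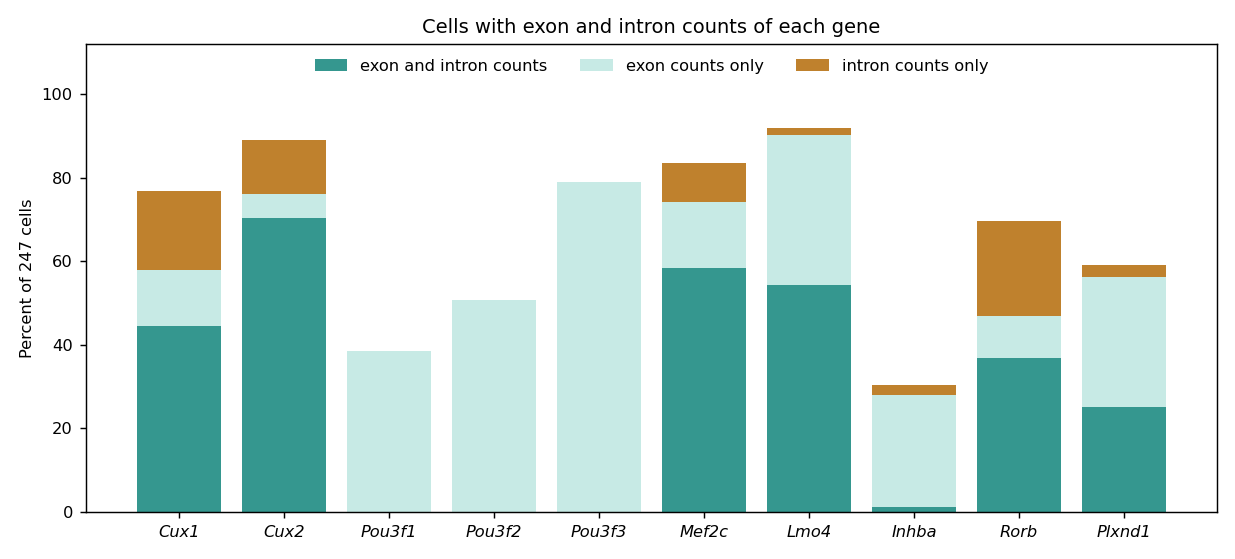
Share of the kept cells (y axis, percent) with exon and intron counts, exon counts only or intron counts only of each upper-layer gene (x axis). Compared between genes, the intron-only segment is largest for Rorb (56 cells) and Cux1 (47 cells), though in both more cells had exon and intron counts. The 3 POU genes, which have a single exon, have exon counts only.

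Upper-layer and deep-layer transcripts were counted in the same cells as a rule. At least 1 of the 5 Cux and POU genes was counted together with at least 1 of Bcl11b, Tbr1, Fezf2, Sox5 and Tle4 in 88.7% of cells, and still in 85.8% of cells thinned to 100000 counts. Of the thinned cells, 90.2% had at least 1 of the Cux and POU genes and 94.7% at least 1 of the deep-layer genes. A high share with both follows from these 2 shares alone. At equal depth 10 cells had a Cux or POU gene and none of the 5 deep-layer genes, 20 cells the reverse and 2 cells neither. With a count of 4 or more required, the share with both was 80.97% of the kept cells. With cells thinned to 20000 counts, a depth that 98.4% of the kept cells had, it was 66.3%.

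Each upper-layer gene shared cells with each deep-layer gene. Of the cells with Cux1 at equal depth, 86.8% also had Bcl11b and 62.8% Fezf2, against 57.7% and 48.1% of the cells without Cux1. Of the 93 cells with Cux2, 80.6% had Bcl11b and 64.5% Fezf2, against 68.2% and 50.0% of those without. Of the cells with Pou3f3, 81.3% had Bcl11b and 60.6% had Tbr1, against 55.7% and 42.9%. For each of the 10 genes, cells with a count held Bcl11b, Tbr1, Fezf2, Sox5 and Tle4 more often than cells without, as shares of cells with no test. The same held for 97.6% to 98.2% of the 10642 genes counted in 10% to 90% of cells, depending on the deep-layer gene, so this is near what any gene showed.

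The number of upper-layer genes in a cell rose with the number of deep-layer genes, and both rose with the number of genes of any kind. At equal depth the Spearman correlation between the 2 numbers (each out of 5) was 0.44. Cells with 0 Cux or POU genes had a median of 2 deep-layer genes and of 2239.5 detected genes, cells with 3 had medians of 4 and 4854, and the 11 cells with all 5 had medians of 4 and 7280. The cells were then split by detected genes into 3 groups of 75. The correlation of the 2 numbers was −0.014 in the low group (941 to 3002 genes), 0.0067 in the middle group and −0.033 in the high group (5443 to 10139 genes). The share of cells with both kinds was 61.3% in the low, 96% in the middle and 100% in the high group.

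**Figure D2:**
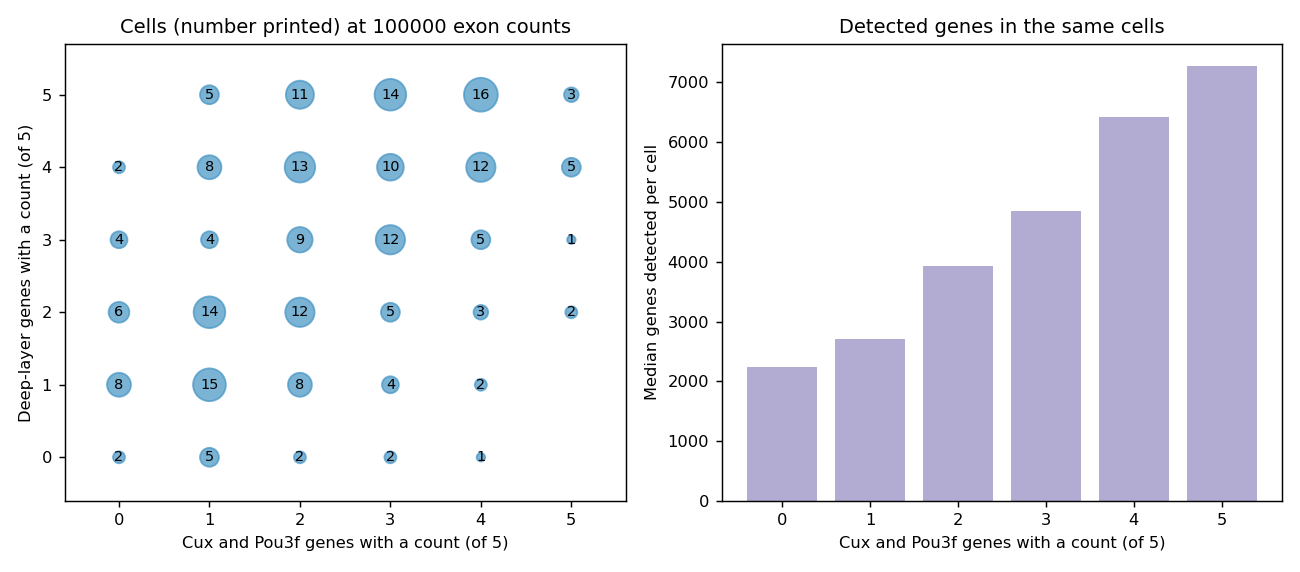
Left, number of cells (printed, and drawn as circle area) by the number of Cux and POU genes (x axis, of 5) and of deep-layer genes (y axis, of 5) with a count, in cells thinned to 100000 exon counts. Right, median number of all genes detected in the same cells (y axis) by the number of Cux and POU genes (x axis), which rises from 2239.5 at 0 genes to 7280 at 5.

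The same held gene by gene. Over the 50 pairs of an upper-layer and a deep-layer gene, 46 correlations at equal depth were above 0, with a median of 0.13 and a range of −0.054 to 0.23. Over all pairs of these 5 with the 10642 genes, 95.4% were above 0, with a median of 0.15. The median of the 10 upper-layer genes lay above that of all genes for Bcl11b (0.163 against 0.154) and Sox5 (0.165 against 0.140), and below it for Tbr1 (0.149 against 0.160), Fezf2 (0.130 against 0.163) and Tle4 (0.078 against 0.12). Once the number of detected genes was taken into account, 30 of the 50 partial correlations were above 0, with a median of 0.0082 and a range of −0.19 (Cux1 with Fezf2) to 0.16 (Inhba with Tbr1), where 49.1% of all pairs were above 0. Among upper-layer genes themselves 41 of 45 pairs were above 0 (median 0.11), and 28 of 45 after the same step (median 0.023, lowest −0.23 for Lmo4 and Plxnd1, highest 0.19 for Pou3f1 and Plxnd1). All of these are descriptions over cells that share clones, plates and library preparation, with counts that are often 0, and none was tested.

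**Figure D3:**
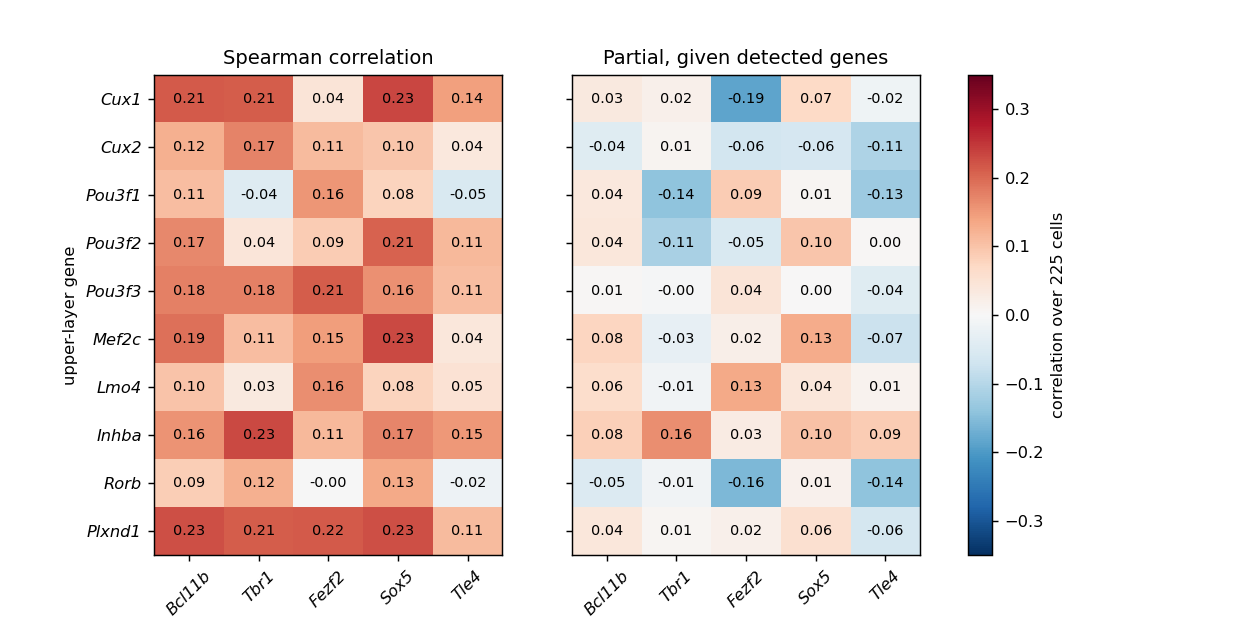
Spearman correlation (left) and partial Spearman correlation given the number of detected genes (right) between each upper-layer gene (rows) and 5 deep-layer genes (columns), over cells thinned to 100000 exon counts, with the value printed in each square. Most squares are above 0 on the left, and on the right they lie on both sides of 0, from −0.19 to 0.16.

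Clones of type SN were compared with clones of type N for each gene. Exon counts were summed over the kept cells of a clone, and the 42 SN clones and 20 N clones with at least 2 kept cells entered, with plate as a covariate. Values are CPM of the clone sums, scaled by TMM, and the deepest cells weigh most in a sum. In such sums fewer expressing cells and less RNA per cell cannot be told apart. None of the 10 genes passed edgeR's quasi-likelihood test at an adjusted p of 0.05, where 0 of 11914 genes tested (0%) were called. An unadjusted p under 0.05 was found for 2.06% of genes, 0.327% higher and 1.74% lower in SN clones, and for 1 of the 10, Inhba, on the lower side. DESeq2's Wald test called 1 gene, not among the 10. All 10 upper-layer genes passed the filter on low counts.

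The Cux genes overlapped widely between clone types. Cux1 ranged from 0 to 152.9 CPM over SN clones around a median of 38.1, and over N clones from 5.86 to 137.2 CPM around a median of 50.7, a log2 difference (SN minus N) of −0.16 ± 0.46 (SE; 95% interval −1.09 to 0.76). Cux2 reached 334 CPM in SN clones, with a median of 10.6, and 221.7 CPM in N clones, with a median of 33.0 and 0 as the lowest value of both, a log2 difference of −0.48 ± 0.61 (−1.69 to 0.73). The lower median of Cux2 in SN clones came with a wide scatter, and its intervals allow a difference of more than 1 log2 unit in that direction.

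The POU genes likewise overlapped. Pou3f3 was counted in every clone, at 0.532 to 239.5 CPM in SN clones, with a median of 51.6, and at 12.1 to 237.4 CPM in N clones, with a median of 87.1, and a log2 difference of −0.53 ± 0.38 (−1.29 to 0.24). Pou3f2 had medians of 34.1 and 34.2 CPM and was counted in 36 of 42 SN clones and in all 20 N clones, whose sums pool more cells. Its log2 difference was 0.031 ± 0.57 (−1.11 to 1.17). Per cell at equal depth, Pou3f2 was counted in 40.5% of the cells of SN clones and 46.2% of those of N clones. Pou3f1 had medians of 4.25 and 10.6 CPM and a log2 difference of −0.33 ± 0.76 (−1.85 to 1.18). The neighbour Pantr1 lay on the other side from Pou3f3, at 0.68 ± 0.38 (−0.080 to 1.44), with a median of 101.4 CPM over SN and of 43.2 CPM over N clones.

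Inhba had the largest fitted difference of the group. It was counted in 24 of 42 SN clones and 17 of 20 N clones, at medians of 0.130 and 1.61 CPM and highest values of 44.1 and 98.7 CPM. Sums of N clones pool more cells, which raises the chance of a count. Per cell at equal depth, Inhba was counted in 9.92% of the cells of SN clones and 10.6% of those of N clones. The log2 difference was −1.93 ± 0.91 (−3.74 to −0.12), with an unadjusted p of 0.0365 (edgeR, adjusted p = 1). Without clone 59, the N clone with the highest level, it was −1.56. A second N clone, clone 3, stood at 94.5 CPM, and leaving it out was not tried. Lmo4 was counted in all 62 clones, at 40.0 to 1037 CPM in SN clones, with a median of 196.5, and at 21.9 to 717 CPM in N clones, with a median of 203.4. It had a log2 difference of −0.36 ± 0.25 (−0.86 to 0.14), the narrowest interval of the 10. Mef2c had medians of 110.8 and 87.3 CPM and a difference of 0.41 ± 0.50, Rorb 6.14 and 13.9 CPM and 0.41 ± 0.78, and Plxnd1 80.9 and 112.2 CPM and −0.21 ± 0.45. For Rorb the fitted difference and the medians had opposite signs. The plot of clone levels shows the overlap for each gene.

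**Figure D4:**
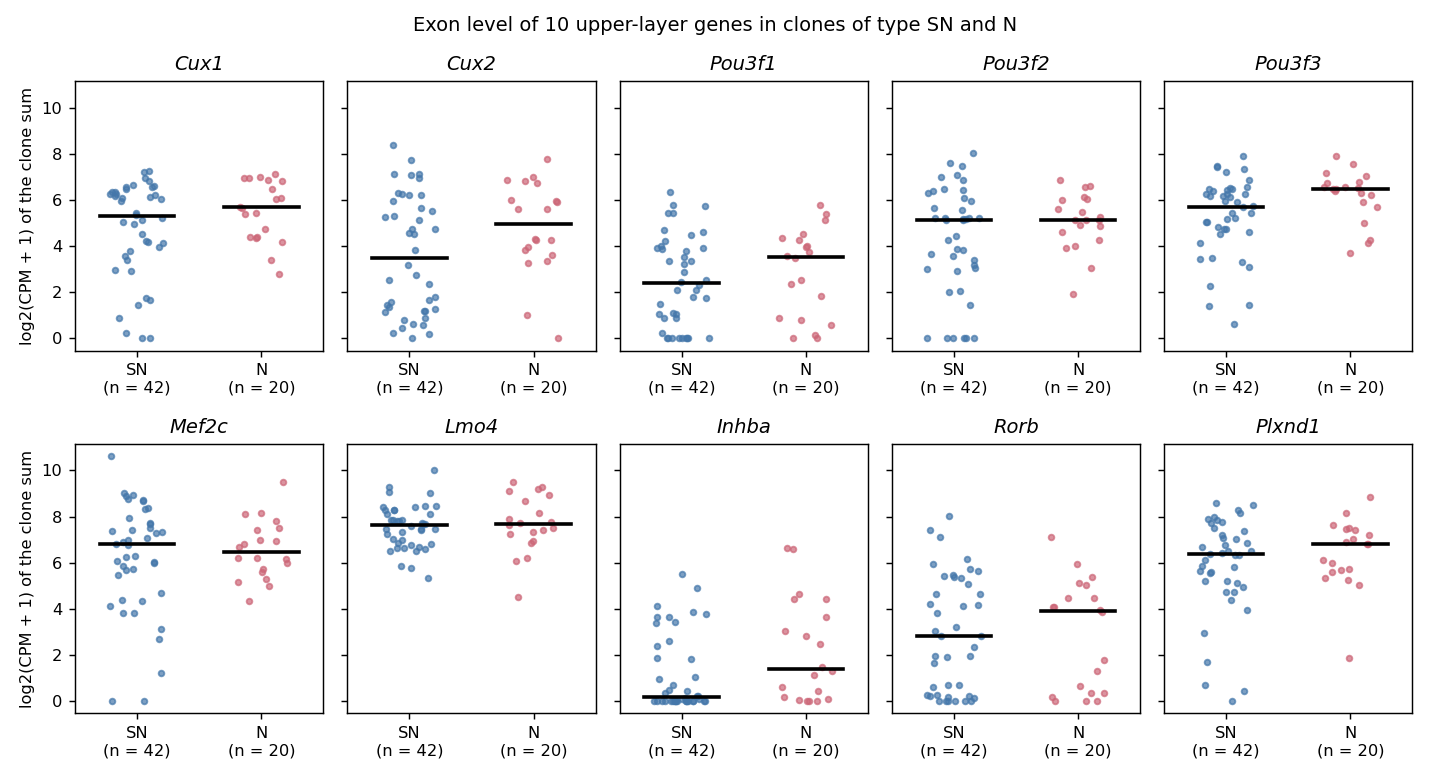
Exon level of each upper-layer gene in the 42 SN and 20 N clones (y axis, log2 of TMM-scaled CPM of the clone sum plus 1), with 1 point per clone and a black bar at the median. SN and N points overlap over most of their range in every panel. Inhba has medians of 0.130 CPM (SN) and 1.61 CPM (N) before the log2 step.

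As a group, 3 of the 10 genes lay above 0 and 7 below, with a median log2 difference of −0.27. Over all 11914 genes 40.2% lay above 0 and the median was −0.11, which became 0.065 with DESeq2's size factors, under which the 10 genes kept their signs. Of 12 other upper-layer genes, 11 were tested, 3 above and 8 below 0 (median −0.28), and of the 12 deep-layer genes 6 lay on each side (median −0.045). None of either list passed the adjusted test. Against the 0.327% of all genes on the positive and 1.74% on the negative side, listed genes with an unadjusted p under 0.05 were Fabp7 of radial glia (0.96 ± 0.36), Col1a1 (−2.37 ± 0.94) and Col3a1 (−2.05 ± 1.01) of mesenchyme and Ttr of choroid plexus (−4.44 ± 1.42), besides the deep-layer gene Foxp2 (1.75 ± 0.87). All 10 radial glia markers lay above 0, and all 4 tested of the 5 mesenchyme and endothelium markers below. The part of these markers in the values of the upper-layer genes was not tested.

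Intron counts gave a separate measure for 6 of the 10 genes, and again none passed, with 0 of 11050 genes (0%) called by edgeR. An unadjusted p under 0.05 was found for 6.33% of genes, 1.55% higher and 4.78% lower in SN clones, and for none of the 6. Cux1 stood at 0.15 ± 0.62, Cux2 at −0.049 ± 0.67, Rorb at 0.13 ± 0.74, Mef2c at 0.14 ± 0.60, Plxnd1 at 0.21 ± 0.82 and Lmo4 at −0.51 ± 0.67. Lmo4 and Mef2c had the same sign in both kinds of count, as did Cux2 and Rorb, while Cux1 and Plxnd1 did not. Among the partner genes, the intron difference of Bcl11b was −1.51 ± 0.62 (unadjusted p of 0.0174, edgeR, adjusted p = 0.664), with a median of 66.6 CPM over SN and of 84.4 CPM over N clones, and a maximum of 6329 CPM in an N clone. Other listed genes with an unadjusted p under 0.05 were Etv1 (3.05 ± 1.02), Zfpm2 (−0.83 ± 0.35), Unc5d (−1.25 ± 0.49), Satb1 (−1.37 ± 0.67), Slc17a6 (2.01 ± 0.97), Mki67 (2.61 ± 1.08) and Fabp7 (1.21 ± 0.48).

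Clone size entered as log2 of the size in the labels, in a fit that also held plate and type, and its slope is the change per doubling. Of the 68 labelled clones, 44 had as many labelled cells as their size, 23 had fewer, and clone 2 had 4 cells at a labelled size of 3. Without clone 2 the 10 slopes kept their signs and none passed. Cux2 had medians of 25.5 CPM in the 23 SN clones of size 2 to 3 and 1.99 CPM in the 19 of size 4 to 6, and of 59.8 CPM in the 10 N clones of size 4 to 6 and 18.6 CPM in the 10 larger ones. Its slope was −0.47 ± 0.61 (−1.69 to 0.76). Pou3f3 had medians of 35.9 and 61.5 CPM in the smaller and larger SN clones and of 90.0 and 85.4 CPM in the N clones, with a slope of 0.17 ± 0.38 (−0.58 to 0.92). Rorb had medians of 4.06 and 6.17 CPM in the SN groups and 0.437 and 16.1 CPM in the N groups, and the largest positive slope, 0.90 ± 0.74 (−0.58 to 2.38). Inhba had the largest negative slope, −1.41 ± 1.07 (−3.55 to 0.72). The other 6 slopes lay between −0.35 (Pou3f1) and 0.12 (Mef2c), and Lmo4 was again the most tightly bounded, at 0.066 ± 0.22 (−0.38 to 0.51).

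No upper-layer gene passed the size test. edgeR called 0 of 11914 genes (0%), with 307 (2.58%) at an unadjusted p under 0.05, 1.64% with a positive and 0.94% with a negative slope, and none of the 10 among them, and DESeq2's test called 3 genes, also none of the 10. Of the 10 slopes 5 were above 0 and 5 below (median −0.020), where 55.4% of all genes lay above 0 (median 0.067). The deep-layer list had 9 of 12 above 0 (median 0.059). The 1 listed gene with an unadjusted p under 0.05 was the endothelial Pecam1, at −2.50 ± 0.87. Tests of whether the slope differed between SN and N clones, chosen after the data had been seen, called none of the 10, with a lowest unadjusted p of 0.0839, for Lmo4 (edgeR, adjusted p = 1).

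**Figure D5:**
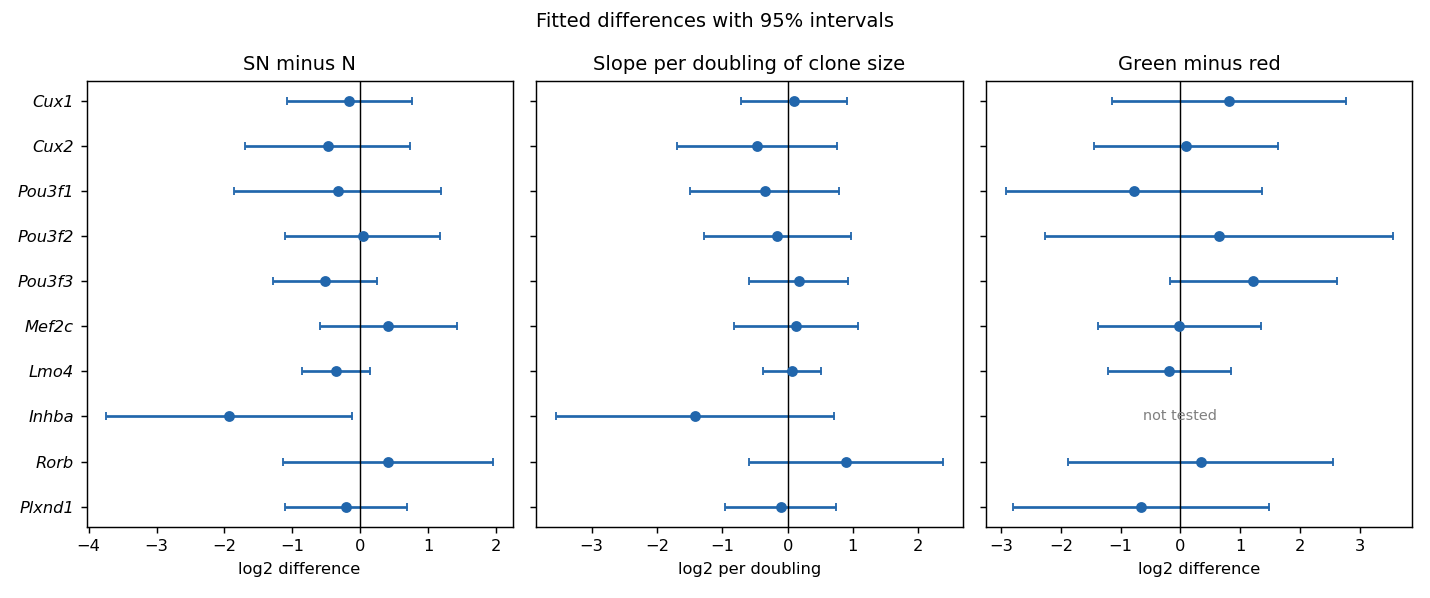
Fitted log2 difference between SN and N clones (left), slope per doubling of clone size (middle) and log2 difference between green and red cells of a clone (right) for each upper-layer gene, with 95% intervals as bars (x axes, log2 units). Of the intervals drawn, the SN minus N interval of Inhba (−3.74 to −0.12) does not include 0, at an adjusted p of 1, and Inhba was not tested in the right panel.

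Green and red cells of the same clone were compared in the 45 clones with both. They lay on the same plate except in clone 45, an N clone in which the 2 red cells lay on plate 2 and 7 of the 8 green cells on plate 3. Pou3f3 was higher in green in 29 clones and in red in 16, with a median of 56.5 CPM over green and of 31.6 CPM over red sums and a log2 difference (green minus red) of 1.22 ± 0.71 (−0.18 to 2.63). Its unadjusted p was 0.0867 (edgeR, adjusted p = 1). Cux1 was higher in green in 24 and in red in 19 clones (0.81 ± 0.98), and Cux2 in 19 and 25 (0.095 ± 0.77). The filter on low counts kept 9 of the 10 genes and removed Inhba. None of the 9 passed at an adjusted or an unadjusted p of 0.05, where edgeR called 0 of 7437 genes (0%) and 1.64% had an unadjusted p under 0.05, 1.29% higher in green and 0.35% higher in red. Of the 9 differences 5 lay above 0 (median 0.095), against 62.0% of all genes (median 0.18). Pou3f2 stood at 3.55 in the 31 SN clones and −2.25 in the 14 N clones with both colours, while the median over all genes was 0.48 in those SN and −0.37 in those N clones. The test of that difference, chosen after the data had been seen, called 0 of 7437 genes. It gave Pou3f2 an unadjusted p of 0.0161 (edgeR, adjusted p = 0.999), the lowest of the 9 genes and the only p under 0.05. The share of all genes with an unadjusted p under 0.05 in this test was not computed. Over the 45 clones Pou3f2 was higher in green in 20 and in red in 20. Without clone 45 none of the 9 passed either, and the difference of Pou3f3 was 1.18 ± 0.72.

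Cells of 1 clone often differed in which of the genes were counted. A gene counted in an intermediate share of cells will be mixed in many clones, and no share over all genes was computed. In 59 clones with at least 2 cells at equal depth, Cux1 was counted in some but not all cells of 41 clones, in all cells of 12 and in none of 6. Pou3f2 was counted in part of the cells of 44 clones and Plxnd1 of 46. Pou3f3 was counted in all cells of 23 clones and Lmo4 of 39, whereas Pou3f1 was counted in no cell of 28 clones and Inhba of 42. The share of the variance of log2 levels that lay between clones, given as an intraclass correlation with no test, was highest for Pou3f1 (0.18), Pou3f3 (0.15), Cux2 (0.14) and Mef2c (0.14), and was below 0.05 in the other 6 genes, among them Cux1 (−0.023) and Pou3f2 (0.040). Plates were not separated from clones in these values.

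Over the 62 clones the genes whose levels followed an upper-layer gene most closely, after plate and total count were fitted out, were not other genes of the group. The group makes up only 10 of the 11914 genes tested, so a closest gene outside it says little about the group. For 9 of the 10 genes the closest gene is given here. It was Lsm6 for Cux1 (Pearson r of 0.72), Dcun1d4 for Cux2 (0.52), Dpp3 for Pou3f1 (0.57), Prc1 for Pou3f2 (0.56), Mbtd1 for Pou3f3 (0.57), B4galt6 for Mef2c (0.54), Hspa12a for Lmo4 (0.52), Pias1 for Inhba (0.46) and Gm49338 for Rorb (0.52). Each is the highest among those of the 11914 genes tested that have a symbol and was picked as such, so the values are a description of these clones.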

How the data were processed

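Single cells were aspirated from clones in cerebral organoids and sequenced with Smart-seq3, a full-length method. The authors deposited raw exon counts and raw intron counts per gene and cell. Reads were processed with STAR 2.7.9a and R 4.4.0 on genome build GRCm39, per the submitters' processing notes. The counting tool, strand setting and use of molecular identifiers are not given in the sources used here. Symbols matched 52083 of 55359 gene IDs. Exon lengths and coding sequences came from GENCODE M21, which is of another build, so no coordinates are given.

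Of 284 labelled cells, 247 had at least 1000 detected genes and were kept, 131 of SN and 116 of N clones. Thinning to 100000 exon counts kept 225 cells and thinning to 20000 kept 243. Exon counts were summed per clone with at least 2 kept cells (127 SN and 114 N cells). edgeR 4.0.16 tested these sums by quasi-likelihood (glmQLFit and glmQLFTest, TMM scaling, filterByExpr), adjusted by Benjamini-Hochberg over all genes at a threshold of 0.05, with plate as covariate, and plate and type for clone size. Colour sums had the clone as block. Each SE was obtained by dividing the absolute log2 value by the root of its F statistic. Replicates were clones. Clone 45, with cells on plates 2 and 3, was placed on plate 3. Thinning used 1 random draw per cell. Wilson intervals treat cells as independent draws and leave out that cells share clones and plates, so they can be too narrow. The alternatives tried were DESeq2 1.42.0 and its size factors, no filter on low counts, no plate term, single plates, other cell filters, thinned cells, clones of size 4 to 6, leaving out the clone with the highest CPM (before TMM scaling) of each gene, and, chosen after the data had been seen, interactions and leaving out clone 2 or 45. The scripts were tested on simulated counts. The genes and lists were chosen with earlier results of these data known. Named were the 10 genes, their partners and neighbour, listed genes with an unadjusted p under 0.05, and the closest genes over clones. Results of some genes are not reported here. For 3 cells the labels name no clone, and no comparison used them.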

Additional observations from a re-analysis of the deposited data

Results flagged for a closer look

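The labels give 3 cells no clone, and the comparisons leave them out. Upper-layer genes were counted above the limit of 3 counts in the deeper of them, and levels are given for genes above that limit. The first of these cells had 1689914 exon counts in 4954 genes, with levels of 7.69 CPM of Cux1, 217.8 CPM of Mef2c, 194.1 CPM of Lmo4 and 31.4 CPM of Plxnd1, and no count of any POU gene of the group. The second had 5976683 exon counts in 13298 genes. Its levels were 179.9 CPM of Cux1, 33.0 CPM of Cux2, 28.6 CPM of Pou3f1, 38.8 CPM of Pou3f2 and 102.9 CPM of Pou3f3. It also held 19.9 CPM of Mef2c, 696.9 CPM of Lmo4 and 0.837 CPM of Plxnd1. The other cell had 2257 exon counts and none of the 10 genes. There are no control samples for these cells, and what they are was not tested.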

How the results depend on the processing

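No upper-layer gene passed the adjusted threshold in any of the alternatives run. The sign was kept in 91.4% of the alternative values for SN versus N, 92.95% for clone size and 86.5% for green versus red, and it turned in 16, 16 and 7 values. The cause was not tested for any value given here. Against no gene in the main analysis, SN versus N called 1 gene (0.00839% of those tested) with DESeq2's Wald test, 2 (0.0169%) with cells of at least 2000 detected genes, 1 (0.00846%) without clone 38 and 6861 (17.4%) with no filter on low counts, none of them an upper-layer gene. Clone size called 3 genes (0.0252%) with DESeq2, 3710 (9.43%) with no filter, 6 (0.0458%) in SN clones alone, 1 (0.00847%) without clone 16 and 1.37% with the filter given the design, again none of the 10. Green versus red called 1 gene (0.00264%) with no filter.

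Values of the same sign also moved. For SN versus N, Rorb reached 2.85 in clones of size 4 to 6, Inhba ran from −3.25 on plate 1 alone to −0.91 on plate 3 alone, and Cux2 was −1.60 on plate 1 alone and −1.27 in clones of size 4 to 6, against 0.41, −1.93 and −0.48. Over its alternatives the slope of Rorb on size ran from 0.37 to 2.48 and that of Inhba from −2.99 to 1.26. Signs of SN versus N turned as follows. On plate 1 alone Cux1 was 0.76, Mef2c −0.32, Rorb −0.17 and Plxnd1 0.61. On plate 2 alone Pou3f1 was 0.73. On plate 3 alone Cux2 was 0.21, Pou3f2 −0.47 and Plxnd1 0.0077. In clones of size 4 to 6 Cux1 was 0.46 and Pou3f2 −0.089, with cells thinned Pou3f2 −0.58 and Plxnd1 0.054, with single-cell clones included Cux1 0.061, with no filter Pou3f2 −0.044, without clone 38 Pou3f2 −0.043 and without clone 24 Plxnd1 0.092. The test of plate by type called none of the 10 (lowest unadjusted p of 0.383, edgeR). Slopes on size turned on plate 1 alone for Cux1 (−0.19), Cux2 (0.040), Pou3f2 (0.10) and Inhba (1.26), on plate 2 alone for Pou3f3 (−0.61), Lmo4 (−0.96) and Plxnd1 (0.49), and on plate 3 alone for Pou3f2 (1.00) and Mef2c (−0.70). They turned in N clones alone for Cux1 (−0.035), Pou3f3 (−0.41) and Mef2c (−0.97), in SN clones alone for Pou3f2 (0.20) and Lmo4 (−0.25), with cells thinned for Pou3f3 (−0.24) and with no plate term for Mef2c (−0.11). Green minus red turned in N clones alone for Cux1 (−1.09), Pou3f2 (−2.25), Lmo4 (0.52) and Rorb (−1.91), in SN clones alone for Mef2c (0.13) and Plxnd1 (1.04), and with cells of at least 2000 genes for Lmo4 (0.011).

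Shares of cells followed depth. The median share of cells with a count over the 10 genes was 57.1%, 46.4% with cells thinned to 100000 counts and 29.4% at 20000. Cells with both gene kinds made up 66.3% at 20000 counts and 80.97% with 4 counts required. The correlation of the 2 numbers of genes was 0.62 at full depth and 0.26 at 20000 counts, against −0.014, 0.0067 and −0.033 within the low, middle and high groups of cells by detected genes. Green and red were compared within clones. For SN versus N and clone size the following holds. No paired analysis was possible because replicate numbers are names in accession order and pair nothing across clone types.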
